A study of Mus musculus with 2 samples.

Results

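In 1 intestinal section of the female mouse, 104 segmented cells carried counts of Cftr, Kcnn4, Slc12a8 or Cracr2a with few counts of the colonocyte transporters and of stromal and muscle genes. They are called crypt-marker cells here. A cell was taken when its counts over the 140 panel genes came to at least 10, its Cftr, Kcnn4, Slc12a8 and Cracr2a counts together to at least 2, its Aqp8 and Slc26a3 counts together to at most 2, and its Vim, Pdgfra and Des counts together to at most 1. The 104 cells were 8.28% (6.82 to 9.94) of the 1256 cells of that depth in their table, of 13707 cells in the table and of 31893 cells in the series. Bracketed values are exact 95% intervals, Poisson for levels and binomial for shares and ratios, and cover counting error only. Duodenum and colon of 1 male and 1 female C57Bl6 mouse were fixed in paraformaldehyde, cut at 10 µm and imaged with MERSCOPE, which counts single transcripts of a chosen gene panel in situ. The labels give an age of 6 to 10 weeks (6 weeks in the collection protocol), standard chow and no treatment or altered allele. Each animal gave 2 imaged regions, numbered 0 and 1 and not assigned to duodenum or colon in the labels. All members were selected on their counts of these 9 genes in region 1 of the female. No replicate section holds them, so there was no test, and every comparison below describes cells of 1 section.

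Crypts are the pits of the intestinal lining in which epithelial cells are born and from which chloride and water are secreted. Chloride leaves the apical side through Cftr, a channel activated through cyclic nucleotide signalling. Potassium channels of the basolateral side, Kcnn4 (opened by calcium) and Kcnq1 (with a partner subunit, sustained by cyclic AMP), keep the driving force. Gucy2c, the receptor of guanylin, makes cyclic GMP and acts upstream of Cftr. Cracr2a binds calcium and regulates calcium release-activated calcium channels, and Slc12a8 belongs to the cation-chloride cotransporter family. Colonocytes of the surface instead take up chloride through the exchanger Slc26a3 and carry the water channel Aqp8.

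The name Cftr and Kcnn4 crypt-type cells fits only part of the members. Counts of Cracr2a were found in 69 of the 104 cells, of Slc12a8 in 58, of Kcnn4 in 40 and of Cftr in 32, with 132, 97, 54 and 36 counts in all. The highest count in 1 cell was 5 for Cracr2a, 6 for Slc12a8, 3 for Kcnn4 and 2 for Cftr. Thus 60 members (57.7%) held Cftr or Kcnn4 and 44 held neither. These values chose the cells and are given as a description. Counts of different genes also depend on their probes, so they are not compared as levels. The panel held none of the 20 crypt stem and cycling genes of the marker list, and the tables used here give no cell positions, so a place in the crypt was not checked.

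Most members were taken on few counts. The marker sum was 2 in 44 cells, 3 in 33, 4 in 15 and between 5 and 7 in the remaining 12. A single marker was counted in 25 cells, 2 markers in 64, 3 in 14 and all 4 in 1. The commonest make-up was Slc12a8 with Cracr2a, in 25 cells, followed by Cracr2a alone in 15 and Kcnn4 with Slc12a8 in 10. Cftr met Kcnn4 without the other 2 in 6 cells.

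**Figure D1:**
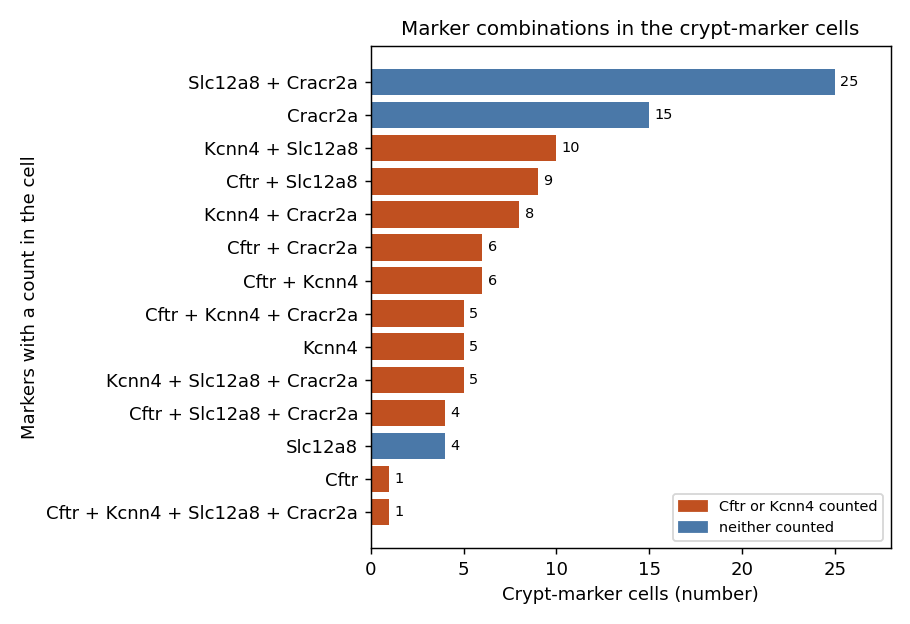
Number of crypt-marker cells (horizontal axis) with each combination of counted markers (vertical axis). Bars are orange where Cftr or Kcnn4 was counted and blue where neither was. The longest bar is Slc12a8 with Cracr2a, 25 of the 104 cells.

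Across all 1256 cells of at least 10 counts, before any limit was set on the other genes, the 4 markers were linked in pairs. Each was counted more often in cells with another marker than in cells without it, although most cells with a marker lacked each other one. Kcnn4 was counted in 12 of 45 cells with Cftr (26.7%, 14.6 to 41.9) and in 6.77% of the 1211 cells without it. Cracr2a was counted in 36 of 98 cells with Slc12a8 (36.7%, 27.2 to 47.1) and in 10.02% of the cells without it. Slc12a8 was counted in 15 of the 45 Cftr cells (33.3%, 20.0006 to 49.0) and in 6.85% of the others. The gap was smaller for Cracr2a, counted in 22 of 94 cells with Kcnn4 (23.4%, 15.3 to 33.3) and in 11.2% of the cells without it. The median panel total was 14 counts in the cells with Cftr, Kcnn4 or Slc12a8 and 15 in the cells without each, and 15 in the cells with and without Cracr2a. Over cells of any depth, cells with one of the markers had medians of 6 or 7 counts and cells without it 1, so shares there are not alike in depth. The choice of the 4 genes was made with such values known.

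The start regions of 3 of the 4 markers are shown because these genes chose the cells and each has 1 entry in the RefSeq promoter table (GRCm38.p6), 250 bases before to 50 after the start, all on the plus strand. Slc12a8 has 3 entries, and Kcnq1 and Gucy2c have none. Capitals mark GGGCGGG or its reverse complement, the GC box bound by Sp and Klf factors.
Cftr, chr6:18170437-18170736: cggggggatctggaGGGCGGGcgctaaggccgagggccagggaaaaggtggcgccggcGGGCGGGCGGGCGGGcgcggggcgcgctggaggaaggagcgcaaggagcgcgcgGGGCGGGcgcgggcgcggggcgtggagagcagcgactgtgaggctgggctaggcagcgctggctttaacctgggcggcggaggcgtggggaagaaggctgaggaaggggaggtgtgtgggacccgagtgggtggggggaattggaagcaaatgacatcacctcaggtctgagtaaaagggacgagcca
Kcnn4, chr7:24370013-24370312: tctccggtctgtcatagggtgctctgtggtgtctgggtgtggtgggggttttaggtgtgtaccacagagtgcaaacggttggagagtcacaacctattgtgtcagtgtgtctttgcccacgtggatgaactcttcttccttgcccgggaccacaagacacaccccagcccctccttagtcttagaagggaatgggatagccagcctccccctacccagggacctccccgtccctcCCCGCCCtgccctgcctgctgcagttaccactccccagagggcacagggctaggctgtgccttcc
Cracr2a, chr6:127561086-127561385: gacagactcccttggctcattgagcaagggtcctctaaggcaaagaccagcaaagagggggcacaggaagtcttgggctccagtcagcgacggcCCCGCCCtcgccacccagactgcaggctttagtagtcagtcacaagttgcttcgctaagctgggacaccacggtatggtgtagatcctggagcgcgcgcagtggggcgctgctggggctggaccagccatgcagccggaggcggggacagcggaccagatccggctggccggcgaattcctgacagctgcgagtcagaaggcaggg
The Cftr window holds 5 matches, some of which overlap, and the Kcnn4 and Cracr2a windows 1 each. None of the 3 Slc12a8 windows holds one, and 25.6% of all 32851 windows in the table do. The letters CTTTGA, the core bound by the Wnt effectors TCF and LEF, were in none of the 3 printed windows on either strand, in 1 of the Slc12a8 windows and in 16.0% of all. TGACG, the core letters of cyclic AMP response elements, was in none of these windows and in 20.8% of all. Letters in a window are a description and show no binding.

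The limits on the colonocyte transporters and on the stromal and muscle genes left out few cells, while the depth limit left out more. Of the 121 cells with at least 10 counts and a marker sum of at least 2, 6 were left out by the limit on Aqp8 and Slc26a3, 9 by the limit on Vim, Pdgfra and Des, and 2 by both. Just inside those limits, 3 members had an Aqp8 and Slc26a3 sum of 2, and 2 cells just outside had 3. On the stromal and muscle limit, 25 members had a sum of 1 and 5 cells outside had 2. At the depth limit, 128 cells met the rest of the rule with fewer than 10 counts, 16 of them with 9. Exactly 10 counts were found in 15 members. Members held 10 to 35 counts (median 14) and the other 1152 cells 10 to 130 (median 15). Blank barcodes, which match no gene, gave 8 counts in the members, 0.500% of all (0.216 to 0.982), with no blank above 1 count, against 1.32% (1.18 to 1.47) in the other cells.

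Among the genes that the rule did not use, the potassium channel gene Kcnq1 and the guanylin receptor gene Gucy2c were higher in the members than in the other cells, together with the phosphatase gene Ptprk, the kinase anchor gene Akap9, the phospholipase gene Plce1 and the guidance genes Nrp2 and Sema5a. The apical linker gene Ezr and the peroxidase gene Prdx6 were lower. Levels are counts per 10000 counts of the 131 genes outside the rule, summed over cells (1222 such counts in the members and 16551 in the other cells). Of the 46 genes with at least 50 counts over both sides, 10 were at least 2-fold higher in the members (21.7%), 10 at least 2-fold lower (21.7%) and 26 lay between (56.5%). The median ratio over the 92 genes with at least 20 counts was 1.02.

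Both panel genes of the chloride and fluid secretion list that the rule had not used were past 2-fold, with a median ratio of 5.45. Over all 46 genes 21.7% were higher, and the median over the 92 genes above was 1.02. Only these 2 genes of the list could be counted, since its other 4 panel genes chose the cells. The list was chosen with earlier results known, so no enrichment of it is read from this count. In the shallower cells described below, Gucy2c was at 3.7 (2.21 to 5.90) and Kcnq1 at 1.23 (0.247 to 3.80). Kcnq1 had 28 counts in 21 of the 104 members, with a median of 0 and at most 3 in a cell, and 49 counts in the 1152 other cells. Its level was 229 in the members (152 to 331) and 29.6 in the other cells (21.9 to 39.1), a ratio of 7.74 (4.68 to 12.6). Gucy2c had 54 counts in 35 members, at most 5 in a cell, at a level of 442 (332 to 577) against 140.2 (123 to 159), a ratio of 3.15 (2.30 to 4.26). With each cell thinned to 10 counts, the expected share of cells with Kcnq1 was 13.2% in the members, against 1.27% in absorptive-marker cells and 1.76% in mesenchymal-marker cells, 2 groups defined below. For Gucy2c the thinned shares were 25.3%, 9.60% and 3.30% in the same order. Without thinning, Kcnq1 was counted in 20.2% of members, 2.48% of absorptive-marker cells and 3.02% of mesenchymal-marker cells, and Gucy2c in 33.7%, 20.95% and 4.91%.

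The remaining 8 higher genes had lower ratios than Kcnq1. Ptprk, a receptor-type tyrosine phosphatase at cell contacts, stood at 450.1 in the members and 131 in the other cells, 3.43-fold (2.51 to 4.63). Akap9, a scaffold that anchors protein kinase A and is known to bind Kcnq1, stood at 434 and 132, 3.29-fold (2.39 to 4.46). Plce1, a phospholipase C that answers to small GTPases, stood at 475 and 206, 2.30-fold (1.71 to 3.05). The semaphorin and vascular growth factor co-receptor gene Nrp2 was 3.32-fold higher (2.03 to 5.23) on 24 counts, and Sema5a, a membrane semaphorin, 4.99-fold (2.50 to 9.42) on 14. The chromatin remodeller gene Chd9 (2.02, 1.14 to 3.38), the polarity gene Pard3 (2.04, 0.976 to 3.87) and the lipid scramblase gene Ano6 (2.06, 0.785 to 4.60) were at the fold limit, the last 2 with intervals that span 1.

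Of the 10 lower genes, Ezr and Prdx6 rest on enough counts to be placed. Ezr, which ties the apical membrane to actin in microvilli, had 67 counts in 43 members and a level of 548 (425 to 696) against 1557 (1497 to 1618), 2.84-fold lower (2.23 to 3.68). Prdx6, a peroxiredoxin, had 15 counts, 1 in each of 15 members, and a level of 123 against 528, 4.30-fold lower (2.59 to 7.72). Of the counts in the other cells, 2068 of 2577 for Ezr and 731 of 874 for Prdx6 lay in the absorptive-marker cells defined below. In cells that met both gene limits with a marker sum of 0 or 1, Ezr stood at 670 (583 to 767) and 759 (595 to 954). Prdx6 stood there at 232 (182 to 291) and 114 (57.1 to 205). Piezo2, Abca8b, Col18a1 and Slc24a3 had 1 count each in the members, no more than the highest blank there. Their ratios of 0.193, 0.193, 0.205 and 0.215 had upper limits of 1.11, 1.11, 1.18 and 1.24. Prickle2, a planar polarity gene, had 3 counts and a ratio of 0.328 (0.0667 to 0.980). Slc8a1, Adipor2 and Col12a1 had 2, 4 and 5 counts, with intervals that reach past 1.

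**Figure D2:**
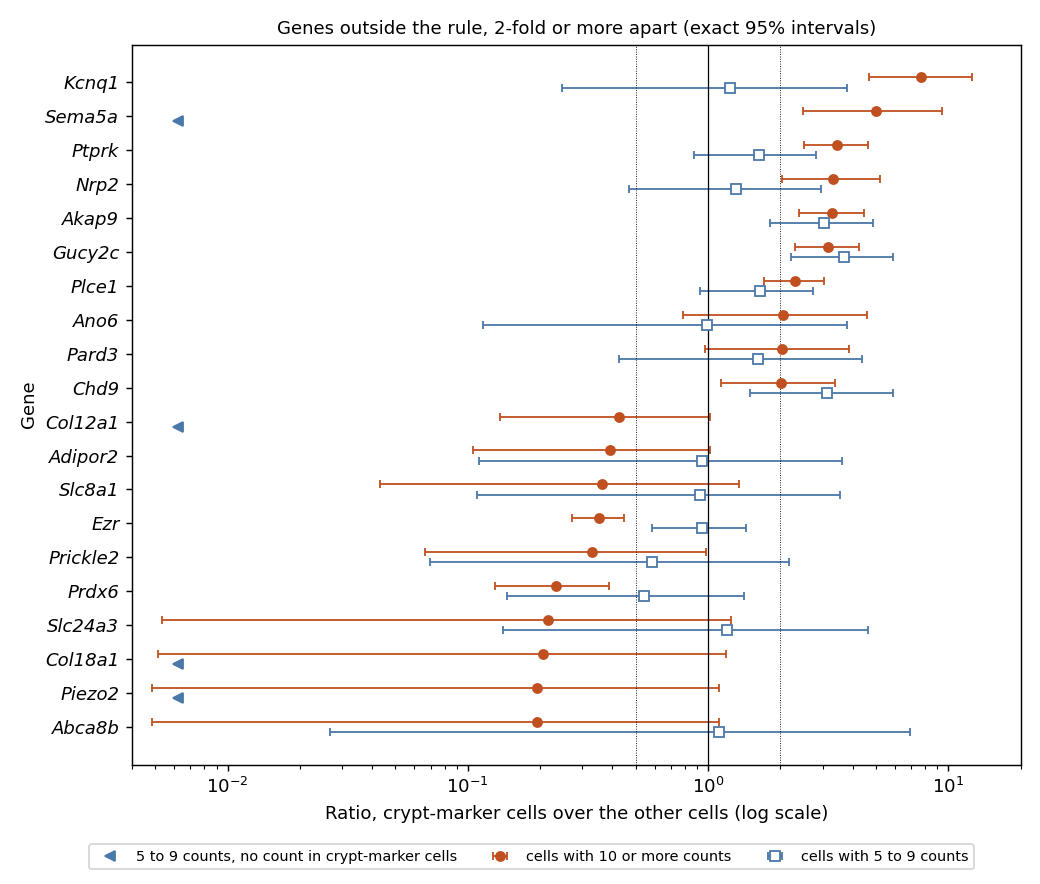
Ratio of the level in crypt-marker cells to that in the other cells (horizontal axis, log scale) for the 20 genes at least 2-fold apart (vertical axis), in cells with 10 or more counts (orange circles) and in cells with 5 to 9 counts (open blue squares), with exact 95% intervals. Triangles mark genes with no count in the shallow crypt-marker cells, and dotted lines mark 2-fold. Gucy2c and Akap9 lie at similar ratios in both, and Kcnq1 falls from 7.74 to 1.23.

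The nearest epithelial comparison is with the absorptive-marker cells, 525 cells with an Aqp8 and Slc26a3 sum of at least 3 and at most 1 count of Vim, Pdgfra and Des. Against these, members were higher in Gucy2c, Ptprk, Akap9 and Plce1 and lower in Ezr and Prdx6. Absorptive-marker cells were deeper, with a median panel total of 22 counts against 14, and the part of depth was not tested. Of 28 genes with at least 50 counts over both sides, 9 were at least 2-fold higher in the members (32.1%) and 6 at least 2-fold lower (21.4%). Gucy2c stood at 442 against 150.1 (125 to 178), 2.94-fold higher (2.10 to 4.07). Ptprk was 6.39-fold higher (4.36 to 9.35), Akap9 5.37-fold (3.68 to 7.78) and Plce1 3.21-fold (2.31 to 4.41). Chd9, the RNA-binding protein gene Sltm and Stard13 were 2.46- (1.33 to 4.35), 2.30- (1.13 to 4.40) and 2.03-fold (1.20 to 3.29) higher. On counts per cell, Chd9, Sltm and Stard13 lay under 2-fold, while the other higher genes stayed past it. Ezr was 4.35-fold lower (3.41 to 5.64) and Prdx6 6.88-fold lower (4.14 to 12.3). The adiponectin receptor gene Adipor2 was 3.42-fold lower on 4 counts in the members (1.29 to 12.8), and the transporter gene Abca8b 7.34-fold lower on 1 (1.26 to 295). Syt4 and Sema6a, a synaptotagmin and a semaphorin gene, were 2.40- and 2.09-fold lower with intervals that span 1.

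Other genes lay within 2-fold of the absorptive-marker level. Shroom3, which drives apical constriction, stood at 917 in the members (755 to 1103) and 1356 in the absorptive-marker cells (1279 to 1435), a ratio of 0.676 (0.552 to 0.821). Ctnnb1, which encodes beta-catenin, had a ratio of 0.672 (0.503 to 0.883). The actin-binding profilin gene Pfn1 (1.21, 0.968 to 1.497), the lipid flippase gene Atp10b (0.848, 0.592 to 1.18) and the nuclear receptor gene Ppard (0.945, 0.561 to 1.51) had intervals that span 1, which does not show equal levels.

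Genes with few counts in total showed the widest gaps to the absorptive-marker cells. Kcnq1 had 28 counts in the members and 13 in the absorptive-marker cells, at levels of 229 and 15.01, a ratio of 15.3 (7.65 to 32.1). Nrp2 had 24 and 5 counts, a ratio of 34.02 (12.7 to 114), and Sema5a had 14 and 6, a ratio of 16.5 (5.97 to 52.5). These 3 genes were under the limit of 50 counts over both sides and are named because they were past 2-fold against all other cells. Their levels in absorptive-marker cells lay below the highest blank there, 32.3 per 10000.

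**Figure D3:**
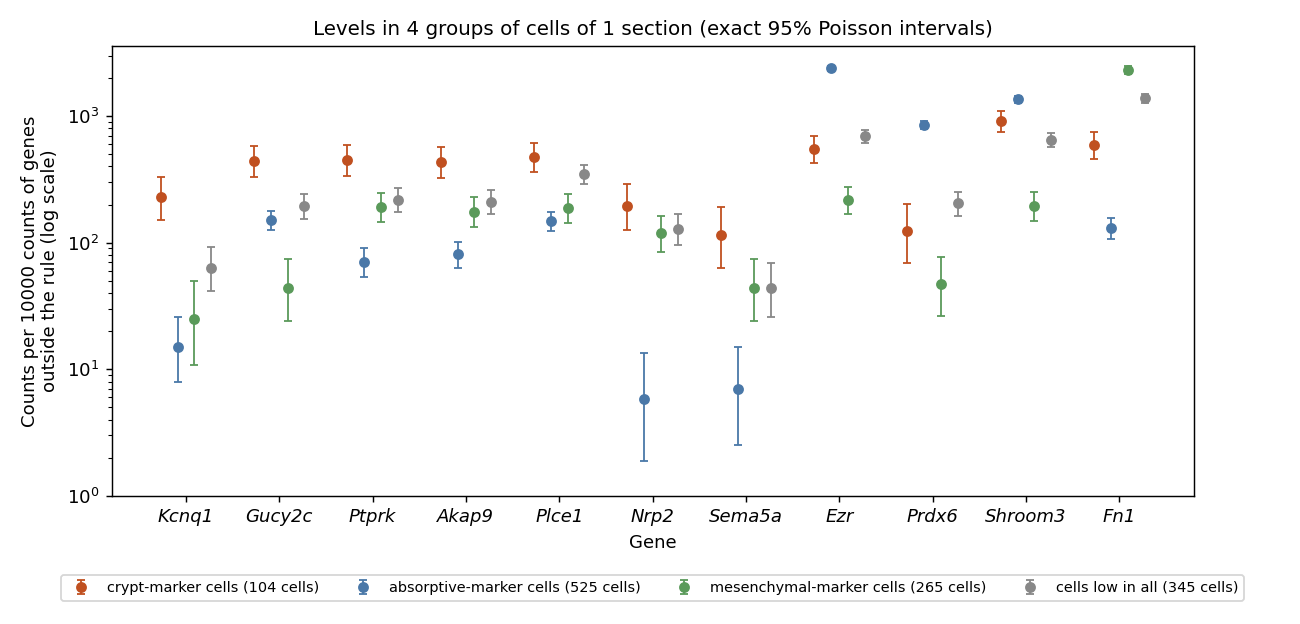
Level of 11 genes outside the rule (horizontal axis) in counts per 10000 counts of genes outside the rule (vertical axis, log scale) in 4 groups of cells of 1 section, with exact 95% Poisson intervals. Kcnq1 stands at 229 in the crypt-marker cells and at 15.01, 25.1 and 63.2 in the absorptive-marker cells, the mesenchymal-marker cells and the cells low in all 3 gene sets, and Ezr and Prdx6 are highest in the absorptive-marker cells.

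Matrix and muscle transcripts were also higher in the members than in the absorptive-marker cells, although the rule limited 3 genes of this kind. Fn1, the gene of fibronectin, was 4.52-fold higher (3.31 to 6.12), with 72 counts in 43 members and 8 of them in a single cell. The muscle kinase gene Dmpk was 3.82-fold higher (2.32 to 6.16). Summed over the 6 panel genes of the stroma and matrix list outside the rule (Fn1, Col12a1, Col18a1, Slit2, Slit3 and Tgfbr3), the level was 720.1 in the members (578 to 887), 193 in absorptive-marker cells, 2936 in mesenchymal-marker cells and 1764 in the cells low in all. The 2 smooth muscle genes outside the rule, Dmpk and Cacna1c, summed to 254, 65.8, 1598 and 360.01 in the same order. No gene of either list was at 0 in the members. In cells of 5 to 9 counts, neither gene was past 2-fold against absorptive-marker cells: Fn1 had 21 and 19 counts, a ratio of 1.16 (0.592 to 2.27), and Dmpk 4 and 5, a ratio of 0.837 (0.166 to 3.89).

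The same comparison was made in cells with no count of Vim, Pdgfra, Des or Fn1, a limit chosen after seeing the data that left 44 members and 369 absorptive-marker cells. Ptprk was then 7.68-fold higher (4.48 to 12.98), Akap9 6.48-fold (3.84 to 10.7), Gucy2c 3.40-fold (2.13 to 5.29) and Plce1 2.81-fold (1.60 to 4.69). Kcnq1 had 15 counts against 7 and a ratio of 24.05 (9.23 to 69.7), and Nrp2 11 against 4 and a ratio of 30.9 (9.14 to 133). Dmpk was 4.21-fold higher (1.97 to 8.39). Ezr was 3.92-fold lower (2.76 to 5.76) and Prdx6 8.80-fold lower (3.75 to 27.2).

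The mesenchymal-marker cells were 265 cells with a Vim, Pdgfra and Des sum of at least 2 and an Aqp8 and Slc26a3 sum of at most 2. Against these, the members were higher in genes that included Gucy2c, Shroom3 and Ezr and lower in genes that included Dmpk and Fn1. Of 19 genes with at least 50 counts, 10 were at least 2-fold higher in the members (52.6%) and 5 at least 2-fold lower (26.3%). Gucy2c was 10.1-fold higher (5.51 to 19.6), Atp10b 5.98-fold (3.30 to 11.3), Shroom3 4.71-fold (3.42 to 6.53), the aldehyde dehydrogenase gene Aldh1b1 3.40-fold (1.91 to 6.13), Pfn1 2.61-fold (1.96 to 3.47) and Ezr 2.53-fold (1.78 to 3.59). Plce1, Akap9 and Ptprk were also higher, 2.52-, 2.47- and 2.35-fold. Lower were Dmpk, 6.69-fold (4.57 to 10.2), Col12a1, 5.29-fold, the guidance gene Slit3, 4.68-fold, Fn1, 3.95-fold (3.10 to 5.10), and the growth factor receptor gene Fgfr1, 3.56-fold. Nrp2 was 1.65-fold higher on an interval that spans 1 (0.945 to 2.82), while Kcnq1 stood at 229 against 25.1.

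Read against the other cells by list, the 5 apical cytoskeleton and polarity genes had a median ratio of 0.771. Ezr and Prickle2 were at least 2-fold lower, Prickle2 on 3 counts (0.0667 to 0.980). Pard3 was at least 2-fold higher on an interval that spans 1 (0.976 to 3.87), and Shroom3 and Ctnnb1 lay between. Over all 46 genes 21.7% were higher and 21.7% lower, so these calls do not set the list apart. Summed, the 5 apical cytoskeleton and polarity genes stood at 2046 per 10000 in the members and at a near value, 2148, in the cells low in all. The sum was 4499 in absorptive-marker cells and 917 in mesenchymal-marker cells. Of the 6 stroma and matrix genes, 5 had at least 20 counts, 2 of them at least 2-fold lower (Col12a1 and Col18a1, on 5 and 1 counts in the members) and 3 between, with a median ratio of 0.606. Over all 46 genes 21.7% were lower, so a count of 2 among 5 sets nothing apart. The panel held 10 enteric neuron genes, which summed to 106 per 10000 in the members, 147 in absorptive-marker cells and 170 in mesenchymal-marker cells, and Elavl4, Stmn2, Syt1, Sncg and Chrna3 were at 0 in the members. The 8 enteric glia genes summed to 115, 91.2 and 157, and Sox10, Gfap and Ptprz1 were at 0. For a gene at 0 counts in the members, the exact upper limit is 30.2 per 10000, and 3 counts would be 24.5. The gland mucin gene Muc6, the 1 panel gene of the secretory lineage list, had 2 counts. No gene of the endothelial, immune or interstitial cell lists was on the panel, so such cells could not be recognised.

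Within the members, the cells with Cftr or Kcnn4 were set against the cells with neither over 17 genes with at least 20 counts. In the cells with Cftr or Kcnn4, 4 genes were at least 2-fold higher (23.5%), Plce1, Kcnq1, Aldh1b1 and Stard13, and 1 at least 2-fold lower (5.88%), Atp10b. The other 12 lay between (70.6%). The intervals of Plce1 and Atp10b exclude 1, that of Atp10b narrowly. This is no test, since the intervals cover counting error only and 17 genes were looked at. Of the Plce1 counts, 5 lay in 1 cell. Plce1 had 47 counts in 60 members with Cftr or Kcnn4 and 11 in the 44 without, levels of 629 (462 to 837) and 232 (116 to 414), a ratio of 2.72 (1.39 to 5.81). It was counted in 29 of the 60 cells (48.3%) and in 7 of the 44 (15.9%). Atp10b went the other way, 228 against 463, a ratio of 0.491 (0.245 to 0.969). Kcnq1 stood at 295 (185 to 446) and 126 (46.4 to 275), a ratio of 2.33 whose interval spans 1 (0.917 to 7.03), as do those of Aldh1b1 (2.09, 0.868 to 5.77) and Stard13 (2.16, 0.766 to 7.49). Gucy2c, at 428 and 463, and Ptprk, at 455 and 442, had ratios of 0.925 (0.521 to 1.67) and 1.03 (0.581 to 1.87). The split was chosen after seeing the data, and median totals were 14 and 12.5 counts.

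This split bears on the ratios against the other cells. Plce1 was 3.05-fold higher than in the other cells in members with Cftr or Kcnn4 (2.20 to 4.15) and 1.12-fold in members with neither (0.556 to 2.04). Kcnq1 was 9.95-fold higher in the former and 4.27-fold in the latter (1.49 to 9.97). Ptprk (3.47 and 3.37) and Gucy2c (3.06 and 3.30) had near values in both.

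By the marker with the most counts, 31 members were led by Cracr2a, 18 by Slc12a8, 9 by Kcnn4 and 4 by Cftr, and 42 had a tie. Gucy2c stood at 617 in the Cracr2a-led cells (395 to 918), 419 in the Slc12a8-led (169 to 864), 450.5 in the Kcnn4-led (146 to 1051) and 360 in the tied cells (213 to 569). The 4 Cftr-led cells had no Gucy2c count but 6 Kcnq1 counts, in 2 cells, a level of 1091 (400.3 to 2374). Kcnq1 stood at 103 in the Cracr2a-led cells (28.02 to 263), 240 in the Slc12a8-led (65.3 to 613), 180.2 in the Kcnn4-led (21.8 to 651) and 240 in the tied cells (124 to 419). The Cftr-led interval lies above the Cracr2a-led one, but it rests on 4 cells and does not cover the spread between cells. No difference is read from it, and the other Kcnq1 intervals overlap each other. The Gucy2c intervals overlap as well.

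The genes outside the rule were followed over the marker sum in the cells that met both limits at a panel total of at least 10. Kcnq1 stood at 47.6 per 10000 (26.7 to 78.6) in the 263 cells with a marker sum of 0, at 114 (57.1 to 205) in the 82 cells with 1, just outside the rule, and at 275 (150.1 to 461) in the 44 cells with 2, just inside. It was 266 in the 33 cells with 3 and 119 (32.4 to 305) in the 27 with 4 or more. Gucy2c stood at 162, 301, 294, 559 and 536 over the same steps, and Ptprk at 210, 249, 471, 399 and 476. Akap9 was already at 364 (253 to 506) and Plce1 at 541 (404 to 709) in cells with a sum of 1. All members stood at 434 (325 to 567) and 475 (360.4 to 614). Gucy2c and Ptprk had intervals of 202 to 433 and 160 to 371 at a sum of 1, against 332 to 577 and 339 to 586 in all members. For Kcnq1, Gucy2c, Ptprk, Akap9 and Plce1 alike, the interval at a sum of 1 overlaps that of all members. A step at the limit of the rule is thus not shown for any of them. Fn1 went down from 1448 (1318 to 1587) at 0 to 1185 at 1 and 706 (494 to 977) at 2.

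**Figure D4:**
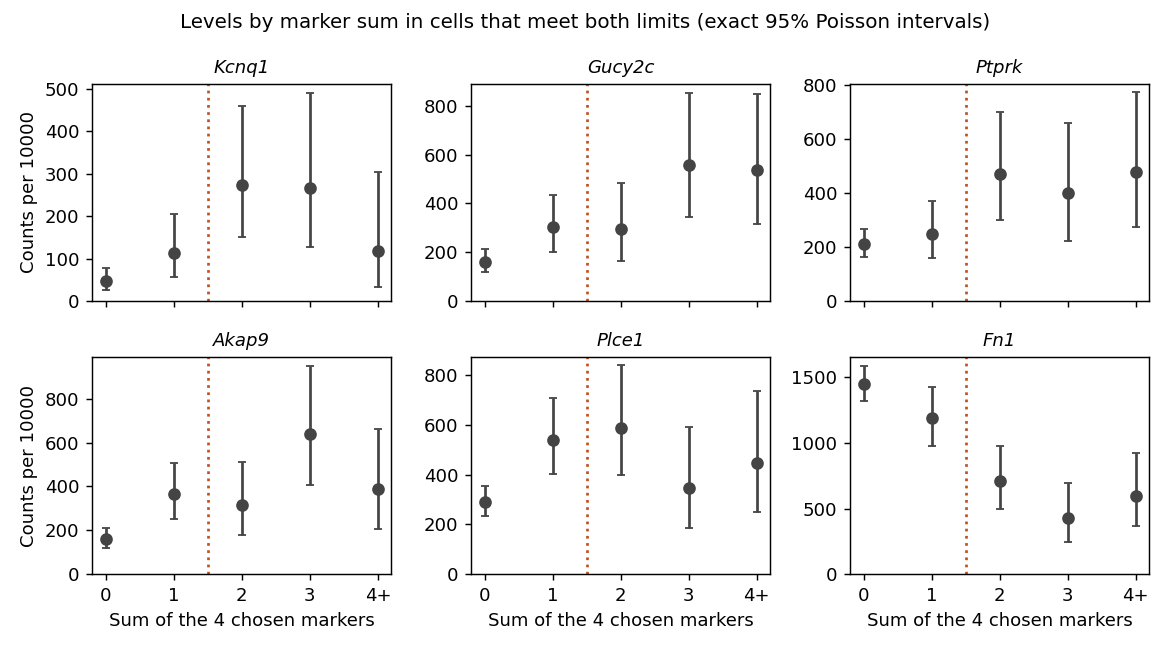
Level of 6 genes (vertical axes, counts per 10000 counts of genes outside the rule) by the sum of the 4 markers (horizontal axis) in cells with at least 10 counts that met both limits, with exact 95% Poisson intervals. The dotted line marks the limit of the rule. Kcnq1 and Gucy2c are lowest at a sum of 0, at 47.6 and 162, and Fn1 is highest there, at 1448.

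Shallower cells of the same section, with 5 to 9 counts, were not used to choose the members. There, 84 of 1651 cells met the rest of the rule (365 counts outside the rule genes), and they shared the Gucy2c, Akap9 and Chd9 pattern but not the Kcnq1 pattern. Gucy2c had 21 counts in them, a level of 575 against 156 in the other 1567 cells, 3.70-fold (2.21 to 5.90). Akap9 had 20, a level of 548 against 180.2, 3.04-fold (1.80 to 4.87), and Chd9 had 11, 3.13-fold (1.501 to 5.92). Kcnq1 had 3 counts, 82.2 against 66.6, a ratio of 1.23 (0.247 to 3.80) whose upper end lies below the 4.68 that bounds the ratio in deeper cells. Sema5a had 0 counts against 38. Ptprk and Plce1 were both at 1.64, with intervals of 0.878 to 2.81 and 0.923 to 2.73.

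Of the 10 genes higher in the deeper members, 8 were above 1 in the shallow cells and 3 past 2-fold. Of the 10 lower genes, 8 were below 1. Among these, Piezo2, Col18a1 and Col12a1 had no count in the shallow crypt-marker cells, with upper limits of 1.60, 1.57 and 0.606 on the ratio. With 0 taken as 3 counts, only Col12a1 was past 2-fold. Ezr, at 0.943 (0.586 to 1.44), was not lower than in all other shallow cells, of which 101 were absorptive-marker cells and 1218 were low in all 3 gene sets. Against the shallow absorptive-marker cells, 8 of the 9 genes higher in the deeper members were above 1 (not Dmpk) and 6 past 2-fold, and of the 6 lower genes 4 were past 2-fold, while Syt4 had no count on either side and Sema6a 2 on each. Set against those 101 absorptive-marker cells, Ezr was 2.56-fold lower (1.55 to 4.39), Prdx6 8.12-fold lower (2.90 to 31.5) and Gucy2c 5.49-fold higher (1.85 to 22.02).

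The other 3 tables held almost no such cells. The rule found 2 of 77 cells with at least 10 counts in female region 0 (2.60%, 0.316 to 9.07), 0 of 55 in male region 0, with an exact upper limit of 6.49% (3 cells would be 5.45%), and 0 of 4 in male region 1, with an upper limit of 60.2%. The 2 cells of female region 0 were filled with Muc6, 33 of 36 counts in one and 38 of 45 in the other, and met the rule on 2 Cracr2a counts and on 1 Cftr and 1 Kcnn4 count. In the whole tables, Cftr had 5 and 2 counts in male regions 0 and 1, 11 in female region 0 and 147 in female region 1. In the same order Kcnn4 had 4, 0, 17 and 397 and Cracr2a 17, 2, 32 and 544. Panel totals were 3048, 582, 4288 and 45942 counts in the same order. Per 10000 panel counts Cftr stood at 16.4, 34.4, 25.7 and 31.997, and Slc12a8 at 9.84, 17.2, 32.6 and 90.1. The highest blank had 9, 2, 33 and 46 counts, so Cftr lay above it only in female region 1. Cracr2a lay above it in male region 0 and female region 1. No cell identifier was shared between tables. These cells were not compared between the animals, since the 55 and 4 male cells of at least 10 counts included none that met the rule.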

How the data were processed

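Transcripts were counted in sections of duodenum and colon of 1 male and 1 female mouse by MERSCOPE imaging, per the labels' protocols. The authors deposited 4 tables of raw counts, 2 regions per animal, with 1 row per segmented cell, 140 genes and 40 blank barcodes. The submitters' processing notes name Seurat, without version or role; how transcripts were decoded and cells segmented is not given in the sources used here. Segmentation can assign transcripts of a neighbouring cell, which was not corrected, and no doublets were removed.

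The members, gene lists and comparisons were chosen with earlier results of these data known. Counts were summed over cells and scaled to 10000 counts of the 131 genes outside the 9 rule genes, so that Aqp8 and the other genes that define the groups do not set the scale. Levels have exact Poisson intervals, shares and ratios exact binomial (Clopper-Pearson) intervals. Up to 12 genes in each direction were named per comparison, at 2-fold or more and with at least 50 counts over both sides, besides the rule genes and members of the lists with at least 20 counts. Other genes were named after their values were seen, and 1 gene that met the rule is not reported here. Thinned shares are the exact expectation of detection in 10 counts drawn from each cell. All members come from 1 section, so no test was made. The fold rule was tried on simulated Poisson sums with changes larger than the 2-fold limit. The simulation held no spread between cells, so it cannot show how the rule behaves with such spread. Alternatives were other denominators, depth, marker and count limits, leaving out the cell with the most counts of each gene, and, chosen after seeing the data, cells without stromal counts and the split by Cftr or Kcnn4. Motifs were searched on both strands. Software was Python 3.11.15, pandas 2.3.3, numpy 2.4.6, scipy 1.17.1 and matplotlib 3.10.9.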

Additional observations from a re-analysis of the deposited data

How the results depend on the processing

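No direction turned in any named gene under the alternatives run, while counts of genes past the fold moved with the count limit and with depth. The cells with 5 to 9 counts alone were not among these alternatives, and some directions were not kept there. Against the other cells, Sema5a and Ano6 were not higher and Abca8b and Slc24a3 not lower. Against absorptive-marker cells, Dmpk was not higher and Syt4 and Sema6a were not lower. Against the other cells, the number of higher genes, 10, became 6 on counts per cell, 5 at a panel total of at least 20, 18 with at least 20 counts over both sides, and 6 with the cell of most counts left out. The number of lower genes, 10, became 18 at a panel total of at least 5, 5 at a total of at least 20, 17 with at least 20 counts, and 5 for the members with a count of Cftr or Kcnn4. Against absorptive-marker cells, the 9 higher genes became 17 with at least 20 counts, and on counts per cell Chd9, Sltm and Stard13 fell under 2-fold. The 6 lower genes there became 10 on counts per cell, 12 with at least 20 counts and 3 in cells with no count of Vim, Pdgfra, Des or Fn1. Against mesenchymal-marker cells, the 10 higher genes became 3 and the 5 lower genes 2 at a total of at least 20, and the 5 lower genes became 14 with at least 20 counts. At a total of at least 20 there are 21 members. A lower count limit lets more genes enter, and a stricter depth limit fewer. The share of crypt-marker cells, 8.28%, became 6.47% at a total of at least 5, 5.17% at a total of at least 20, 4.78% at a marker sum of at least 3, 6.37% with no Aqp8 or Slc26a3 count and 6.29% with no Vim, Pdgfra or Des count. Kcnq1 against the other cells was 4.68-fold higher at a total of at least 5 and 22.0-fold at a total of at least 20, and the cause was not tested. No paired analysis was possible because all members lie in 1 section of 1 animal. Depth limits genes with few counts: 3 counts in the members are a level of 24.5 per 10000.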

Other observations

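A few further genes were set against the absorptive-marker cells. Aldh1b1, a mitochondrial aldehyde dehydrogenase gene, stood at 245 per 10000 in the members and 166 in absorptive-marker cells, a ratio of 1.48 (0.961 to 2.20). The lectin gene Clec2h stood at 115 and 216, a ratio of 0.531 (0.285 to 0.913). The growth factor receptor gene Egfr had 7 counts in the members and a ratio of 0.992 (0.380 to 2.20), and Heph, a copper-dependent iron oxidase gene, had 5 and a ratio of 1.04 (0.318 to 2.68). Col8a1, a short-chain collagen gene, had 8 counts in 6 members and 2 in absorptive-marker cells, a ratio of 28.4 (5.66 to 274). These genes were chosen after their values were seen.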
